A study of Mus musculus with 16 samples.

Results

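Expression of *Hif1a* and of 9 genes that respond to low oxygen outside glycolysis was followed in the skin epidermis of mice that lose centrioles. The 10 genes were chosen by name, as the rows whose symbol is *Hif1a*, *Egln1*, *Egln3*, *Adm*, *Vegfa*, *Bnip3*, *Bnip3l*, *Car9*, *Ndrg1* or *Ankrd37*, out of 49452 genes in each table. RNA-Seq was performed on 16 libraries, with 4 controls and 4 *Sas-4* mutants at E13.5 (epidermal sheets of back skin) and at P0 (unplated keratinocytes of newborns). *Sas-4* (*Cenpj*) encodes a protein needed to build centrioles. All 16 libraries have FVB/C57BL6 as their strain tag and carry at least 1 floxed *Sas-4* allele. The mutants are K14-Cre tg/wt with *Sas-4* fl/fl, and the K14 promoter drives Cre in keratinocytes of stratified epithelia, while other cells of the skin are not targeted. The controls are *Sas-4* fl/wt. At P0, controls 2 and 3 carry K14-Cre and controls 1 and 4 do not. At E13.5 no control by title carries it, so an effect of Cre and an effect of *Sas-4* loss cannot be told apart there.

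The labels of the E13.5 libraries conflict. The names of the 8 columns give the opposite genotype to the titles and genotype tags, and groups here follow the titles. *Cenpj* itself went against these titles. Its mean was 3.70 FPKM in the 4 libraries with a control title and 8.90 in the 4 with a mutant title, with a log2 fold change of 1.08 (limma, adjusted p = 1.87e-06). At P0 all labels give the same groups, and mean *Cenpj* dropped in the mutants, from 3.80 to 1.34 FPKM, by -1.03 on the log2 scale (adjusted p = 0.000141, limma). E13.5 groups are therefore called titled controls and titled mutants, and every E13.5 direction turns around if the column names are right.

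HIF1 is a transcription factor made of an oxygen-regulated subunit, HIF1α, and a constant partner, ARNT. When oxygen is present, prolyl hydroxylases of the EGLN family mark HIF1α for binding by VHL and for breakdown. When oxygen is scarce the subunit accumulates, enters the nucleus and activates genes for blood vessel growth, mitochondrial removal, pH control and its own feedback. HIF1α is controlled mainly as a protein, which was not measured here. The epidermis has no blood vessels of its own and is known as a tissue of mild hypoxia.

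The DNA element bound by HIF1 contains the core ACGTG or, less often, GCGTG. Promoter windows of 300 bases (250 before and 50 after the start, RefSeq, GRCm38.p6) were found for 8 of the 10 genes, 9 windows in all because *Vegfa* has a pair. *Bnip3l* and *Ndrg1* had none. Either core, on either strand, was present in 8 of the 9 windows, against 43.8% of 32851 windows of the same length. ACGTG alone was present in 7 of the 9, against 19.6%. The *Vegfa* matches lay in its window at chr17:46025114-46025413, inside the gene, and its window at the 5′ end (46032328-46032627) had 0. GC content was 54.7% (*Egln3*) to 86% (*Egln1*) in the 9 windows and was not compared with that of all windows. The cores can overlap, since ACGTG on one strand may share bases with ACGTG on the other. A match describes the letters only. The windows of *Adm*, *Egln3* and *Bnip3* are shown because these genes had the largest changes at P0, the first pair upward and the last downward. They are written 5′ to 3′ on the strand of the gene, with either core, read on either strand, in capitals.

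*Adm*, chr7:110627407-110627706, plus strand: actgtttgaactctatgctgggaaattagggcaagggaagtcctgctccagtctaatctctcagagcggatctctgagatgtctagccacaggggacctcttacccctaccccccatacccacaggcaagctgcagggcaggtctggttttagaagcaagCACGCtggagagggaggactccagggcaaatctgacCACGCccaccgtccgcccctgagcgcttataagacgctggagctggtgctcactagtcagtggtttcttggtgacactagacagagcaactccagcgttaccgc

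*Egln3*, chr12:54203825-54204124, minus strand: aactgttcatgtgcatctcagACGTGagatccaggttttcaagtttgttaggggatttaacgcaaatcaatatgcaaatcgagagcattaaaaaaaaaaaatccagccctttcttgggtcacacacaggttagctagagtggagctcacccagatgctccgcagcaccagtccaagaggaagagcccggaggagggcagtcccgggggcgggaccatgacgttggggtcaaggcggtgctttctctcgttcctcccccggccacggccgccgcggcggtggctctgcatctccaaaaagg

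*Bnip3*, chr7:138909457-138909756, minus strand: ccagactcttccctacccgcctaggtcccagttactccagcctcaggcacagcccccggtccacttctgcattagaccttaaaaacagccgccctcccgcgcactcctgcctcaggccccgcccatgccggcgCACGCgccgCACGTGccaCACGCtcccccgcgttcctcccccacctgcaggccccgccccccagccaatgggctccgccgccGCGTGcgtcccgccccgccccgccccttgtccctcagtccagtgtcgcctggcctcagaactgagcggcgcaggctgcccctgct

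The *Bnip3* window held 5 core matches, the *Adm* window 2, both GCGTG on the opposite strand, and the *Egln3* window 1 ACGTG.

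Values are FPKM made by the authors, in which reads are scaled to transcript length and to library size. Summed FPKM per library was between 605744 and 658206 at P0, except for mutant 4 at 740238, and between 546593 and 584238 at E13.5. The tables hold no read numbers, so absolute depth is unknown, and relative depth estimated from the lowest values was 0.923 to 1.11 at P0 and 0.838 to 1.03 at E13.5. At E13.5 it was 0.936 to 1.03 in titled controls and 0.838 to 0.911 in titled mutants, without overlap. The part of depth in the values of low genes was not tested. P0 mutant 4 stood apart in another way. The shortest genes (lowest quartile of length) were shifted by 0.21 in it and the longest (highest quartile) by -0.27 (median log2 deviation from its group), against -0.15 to 0.06 and -0.04 to 0.11 in the other P0 libraries. It was the lowest mutant for 6 of the 10 genes, so results at P0 are also given without it. Exon lengths were 2265 (*Bnip3*) to 6596 bases (*Ndrg1*) for these 6 and 1539 (*Ankrd37*) to 3594 (*Egln1*) for the others. The part of the length shift in the values of the 10 genes was not tested. Keratinocyte markers (*Krt5*, *Krt14*, *Krt1*, *Krt10*, *Trp63* and *Cdh1*) summed to 27500 to 32500 FPKM in P0 controls, 37100 to 48600 in P0 mutants and 2350 to 2950 at E13.5. Keratinocyte markers were thus abundant in every library, as the tissue labels say.

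At P0, 9 of the 10 genes passed the filter on low values (4 or more libraries with 1 FPKM or more) and were tested with limma on log2(FPKM + 1), a scale that understates changes of low genes. *Adm*, *Egln3* and *Ndrg1* rose in the mutants and *Bnip3* and *Egln1* fell, 5 of 9, whereas *Hif1a*, *Vegfa*, *Bnip3l* and *Ankrd37* did not pass the threshold. *Adm* reached the filter only through the mutants (4 of them and 1 control at 1 FPKM or more), so a difference was built into its being tested. The background was high. Of all 13033 genes tested, 42.3% passed the adjusted p of 0.05, 11.7% as higher and 30.7% as lower. The median log2 fold change was 0.40 over the 9 genes and -0.15 over all genes. In P0 controls *Bnip3l*, *Egln1* and *Hif1a* were the most abundant, in that order and without overlap, then *Ndrg1*, *Vegfa*, *Bnip3*, *Egln3* and *Ankrd37*, whose neighbouring ranges overlapped, and *Adm* and *Car9* were the lowest. Whether the libraries came from separate animals is not stated, so p-values measure only the spread between them. In bulk RNA, fewer cells of a type and less RNA per cell cannot be told apart.

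Only *Adm* and *Egln1* kept their calls whichever of the 8 libraries was left out. These fits kept the filter that *Adm* had reached only through the mutants. The number of calls fell to 4 without control 3 (36.3% of all genes called), to 3 without control 1, control 2, mutant 2 or mutant 3 (35.8%, 33.8%, 39.1% and 36.4%) and to 2 without control 4 or mutant 1 (34.4% and 41.1%), so calls over all genes fell in the same fits. Without mutant 4 the number of calls stayed at 5, with 4 higher and 1 lower, against 49.5% of all genes. *Hif1a* joined the higher ones there and *Bnip3* lost its call. Scaling mattered as well. The median over all genes moved from -0.15 with the deposited values to 0.028 (median-of-ratios scaling) and -0.004 (quantile normalization), and the higher calls among all genes went from 27.6% of the calls to 54.2% and 48.3%. Of the 9 genes, 4 were then higher and 0 lower (median-of-ratios) or 4 higher and 1 lower (quantile), with *Ankrd37* joining the higher ones, against 38.5% and 36.8% of all genes called.

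**Figure D1:**
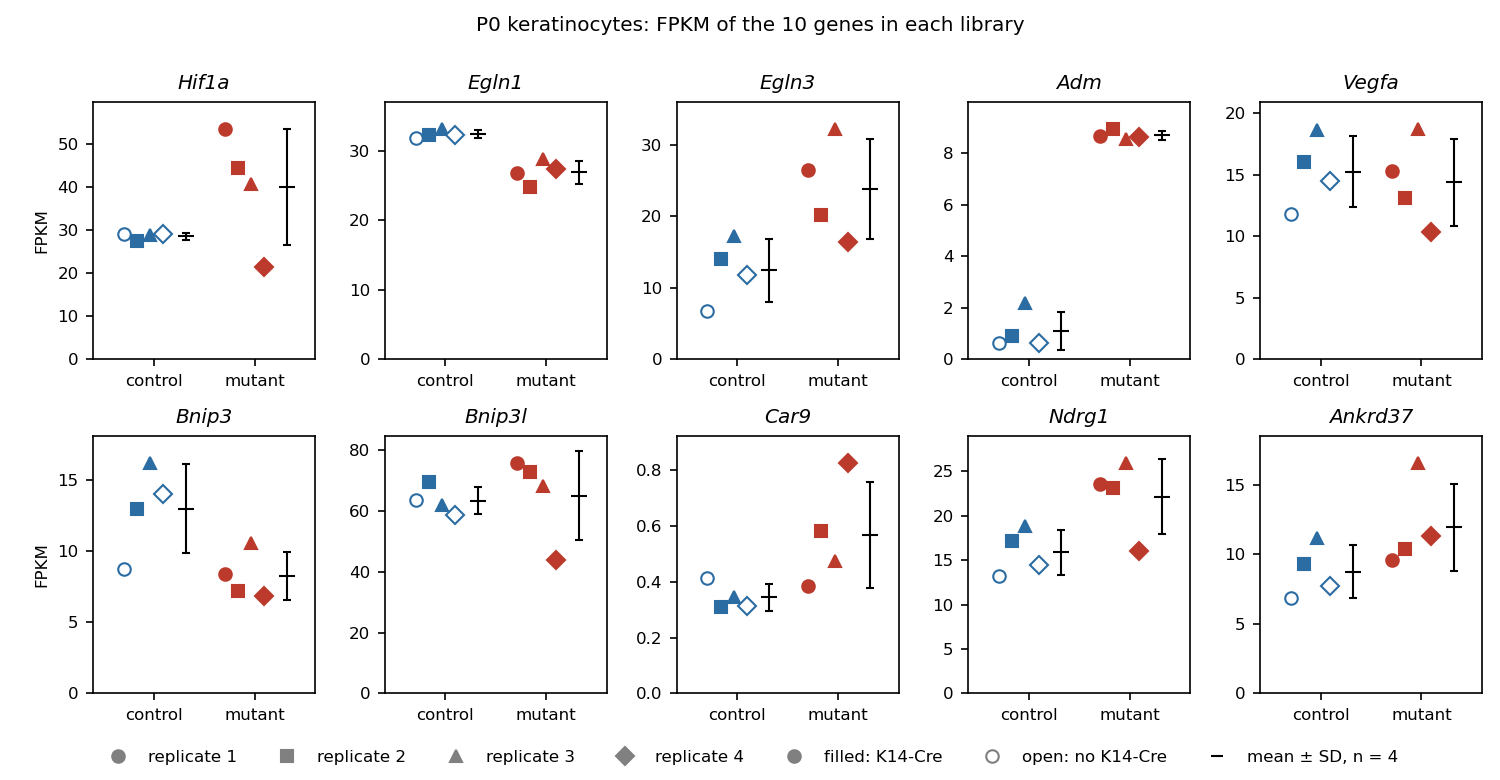
FPKM of the 10 genes in the 8 P0 libraries, one panel per gene with its own linear axis from 0, with the mean and SD of 4 libraries beside each group. Filled symbols carry K14-Cre and open symbols do not. All 4 mutants sit between 8.55 and 8.92 for *Adm*, above every control, and mutant 4 (diamond) is the lowest mutant for *Hif1a*, *Vegfa*, *Bnip3*, *Bnip3l*, *Egln3* and *Ndrg1*.

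*Hif1a* (chr12:73901375-73947530, mm10, plus strand) encodes the oxygen-regulated subunit. Its FPKM was 29.1, 27.5, 28.9 and 29.1 in P0 controls 1 to 4 and 53.5, 44.4, 40.8 and 21.5 in mutants 1 to 4. The controls were nearly equal, whereas 3 mutants were above every control and mutant 4 was below every control. The mean was 28.6 ± 0.784 FPKM in controls and 40.04 ± 13.47 in mutants (SD, n = 4). The difference did not pass the threshold (log2 fold change 0.40, SE 0.23, limma, adjusted p = 0.193). Without mutant 4 the mutant mean was 46.2 ± 6.58 FPKM (SD, n = 3), 1.61-fold that of the controls (log2 fold change 0.66, limma, adjusted p = 0.000654), so a single library decided this call. It was lower, at 0.24 (adjusted p = 0.409), without mutant 1. The share of all genes called was 49.5% without mutant 4.

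The hydroxylases that mark HIF1α for breakdown moved in opposite directions. *Egln1* (PHD2; chr8:124908587-124949324, minus strand), the main oxygen sensor of the family, was at 31.8, 32.3, 33.1 and 32.3 FPKM in controls and 26.8, 24.7, 28.8 and 27.3 in mutants. The groups did not overlap, with every mutant below every control, as was the case in one direction or the other for 43.5% of all genes. The mutant mean was 0.83 of the control mean (log2 fold change -0.26, SE 0.07, limma, adjusted p = 0.0137), beside the median of -0.15 over all genes. After median-of-ratios scaling the log2 fold change was -0.067 (limma, adjusted p = 0.496), and against the controls with K14-Cre alone it was -0.28 (adjusted p = 0.0949).

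*Egln3* (PHD3; chr12:54178981-54203860, minus strand) is both a hydroxylase and a hypoxia-induced gene. Its FPKM was 6.71, 14.1, 17.2 and 11.8 in controls and 26.5, 20.2, 32.2 and 16.4 in mutants. Controls spread widely and mutant 4 lay below control 3, while the other mutants were above every control. The mean rose 1.91-fold, from 12.5 ± 4.43 to 23.8 ± 6.99 FPKM (SD, n = 4), with a log2 fold change of 0.91 (SE 0.28, limma, adjusted p = 0.0265). The call was lost without control 1, control 4, mutant 1 or mutant 3 (adjusted p = 0.0503, 0.058, 0.0612 and 0.0705). Against the controls with K14-Cre the log2 fold change was 0.54 (adjusted p = 0.171).

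*Adm* had the largest log2 fold change of the 9 genes tested at P0, which it joined through its mutant values. It encodes adrenomedullin, a secreted peptide that acts on blood and lymphatic vessels (chr7:110627661-110629820, plus strand). Its FPKM was 0.646, 0.889, 2.20 and 0.641 in controls and 8.64, 8.92, 8.55 and 8.62 in mutants. The mutants were nearly equal to each other and all far above the controls, among which control 3 was the highest. The mean rose 7.94-fold, from 1.09 ± 0.745 to 8.69 ± 0.164 FPKM (SD, n = 4), with a log2 fold change of 2.27 (SE 0.20, limma, adjusted p = 3.65e-05). It passed the threshold under all 16 alternatives in which it was tested, with adjusted p between 5.31e-06 and 0.0011. All of these but the fit without a filter (limma, adjusted p = 0.000383) kept the filter that *Adm* reached through its mutants. Under the stricter filter (mean of 5 FPKM) *Adm* was not tested. In mutant 4 *Adm* was at the level of the other mutants, unlike most of the set. Its exons span 1619 bases, and the part of the length shift of mutant 4 in this was not tested.

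*Vegfa* (chr17:46016993-46032369, minus strand), the main growth factor for blood vessels, did not pass the threshold at P0. Its FPKM was 11.8, 16.03, 18.6 and 14.4 in controls and 15.3, 13.1, 18.7 and 10.4 in mutants. The groups were interleaved, with means of 15.2 ± 2.88 and 14.4 ± 3.51 FPKM (SD, n = 4). The log2 fold change was -0.090, with a 95% interval of -0.50 to 0.32 (limma, adjusted p = 0.719), and its sign turned under both other scalings.

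The paralogues *Bnip3* (chr7:138890836-138909519, minus strand) and *Bnip3l* (chr14:66985239-67008877, minus strand) encode receptors on the outer mitochondrial membrane that recruit the autophagy machinery. *Bnip3* was at 8.74, 13.0, 16.1 and 13.98 FPKM in controls and 8.35, 7.17, 10.6 and 6.83 in mutants. All mutants but mutant 3 were below every control, and control 1 lay among the mutants. The mean was 13.0 ± 3.11 in controls and 8.23 ± 1.69 in mutants (SD, n = 4), and the log2 fold change was -0.58 (SE 0.19, limma, adjusted p = 0.0311). The fall passed the threshold under only 7 of 17 alternatives, with adjusted p up to 0.119 (quantile normalization), and it was lost without control 2, 3 or 4 or mutant 1, 2 or 4 (0.0706, 0.0834, 0.0807, 0.053, 0.0725 and 0.0611). *Bnip3* was thus lower in mutants while *Egln3*, *Ndrg1* and *Adm*, other hypoxia-induced genes, were higher.

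*Bnip3l*, the most abundant of the 10 in P0 controls, was at 63.7, 69.6, 62.0 and 58.6 FPKM in controls and 75.7, 72.7, 68.2 and 43.8 in mutants. Here again mutant 4 was the lowest library and mutants 1 and 2 were the highest. The log2 fold change was 0.0076 with a 95% interval of -0.35 to 0.37 (limma, adjusted p = 0.975), and its sign turned when control 3 or 4 or mutant 1, 2 or 3 was left out. The ratio of *Bnip3l* to *Bnip3* FPKM was 3.84 to 7.29 in controls and 6.41 to 10.2 in mutants, ranges that overlapped.

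*Ndrg1*, *Ankrd37* and *Car9* are hypoxia-induced genes with other roles. *Ndrg1* (chr15:66929321-66969640, minus strand), a cytoplasmic protein linked to differentiation and stress, was at 13.3, 17.2, 18.8 and 14.4 FPKM in controls and 23.5, 23.1, 25.9 and 16.1 in mutants. Mutants 1, 2 and 3 were above every control, and mutant 4 lay among the controls. The mean rose 1.39-fold, from 15.9 ± 2.54 to 22.2 ± 4.23 FPKM (SD, n = 4), with a log2 fold change of 0.45 (SE 0.16, limma, adjusted p = 0.0466). It was past the threshold under 8 of 17 alternatives and was lost without control 1, 2 or 4 or mutant 1, 2 or 3 (adjusted p = 0.121, 0.0681, 0.113, 0.0961, 0.0949 and 0.119).

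*Ankrd37* (chr8:45996902-46005707, minus strand) encodes a small ankyrin repeat protein. Its FPKM was 6.84, 9.33, 11.2 and 7.69 in controls and 9.60, 10.4, 16.5 and 11.3 in mutants. The groups overlapped through control 3, and the log2 fold change of 0.40 did not pass the threshold (SE 0.18, limma, adjusted p = 0.111). It passed under 4 of 17 alternatives, among them median-of-ratios scaling (0.58, adjusted p = 0.0302) and quantile normalization (0.59, adjusted p = 0.033), and was at 0.24 without mutant 3 (adjusted p = 0.258) and 0.18 against Cre-positive controls (adjusted p = 0.584). *Car9* (chr4:43506966-43513729, plus strand), a membrane-bound carbonic anhydrase that acidifies the outside of hypoxic cells, was under the filter in every library. It was at 0.412, 0.309, 0.344 and 0.312 FPKM in controls and 0.386, 0.583, 0.474 and 0.823 in mutants, and an exact permutation test gave a two-sided p of 0.0571 (70 splits, smallest possible p 0.0286). Mutant 4, low for most of the set, was the highest library here.

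Some P0 libraries were repeatedly the highest or lowest of their group. Control 3 was the highest control for 7 of the 10 genes and control 1 the lowest for 6, and mutant 3 was the highest mutant for 6. Both controls with K14-Cre were above both controls without it for *Adm* (2.4 times), *Egln3* (1.69), *Ankrd37* (1.41), *Vegfa* (1.32) and *Ndrg1* (1.3). With 2 libraries on each side this is a description, and how many of all genes separate in this way was not counted. When mutants were compared with the 2 Cre-positive controls alone, 2 of the 9 genes passed the threshold, *Adm* (log2 fold change 1.98, limma, adjusted p = 0.0011) and *Bnip3* (-0.76, adjusted p = 0.027), against 23% of all genes. *Adm* had reached the filter of this fit only through the mutants. The part of Cre in the other calls was not tested apart from this comparison.

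**Figure D2:**
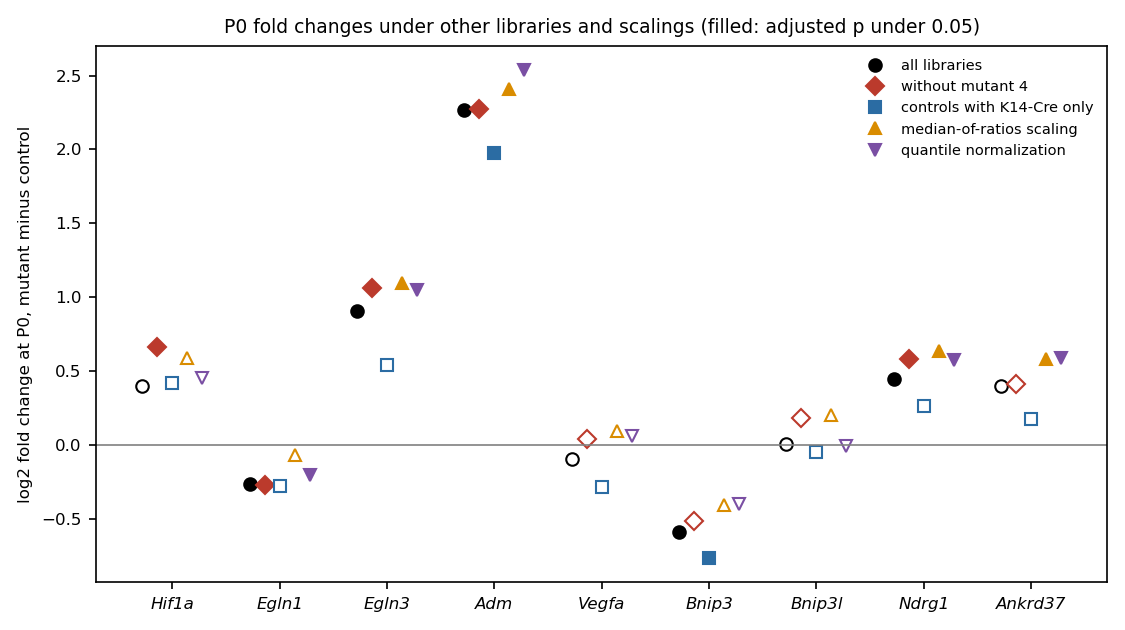
Log2 fold changes at P0 (mutant minus control) of the 9 tested genes with all libraries, without mutant 4, against the controls with K14-Cre only, and after median-of-ratios scaling or quantile normalization. Filled symbols have an adjusted p under 0.05. *Adm* is filled under all 5, *Hif1a* only without mutant 4, and *Egln3* and *Ndrg1* under all but the Cre-only comparison. *Adm* had reached the filter only through the mutants.

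At E13.5 the order of levels was different. *Hif1a* and *Bnip3l* were the most abundant in titled controls (52.8 ± 2.04 and 51.0 ± 1.82 FPKM, SD, n = 4, with overlapping ranges), followed by *Egln1* and *Vegfa*. *Egln3*, *Ndrg1*, *Car9* and *Adm* were between 0.0507 and 1.44 FPKM in these libraries. Of the 10 genes 8 were tested, and *Vegfa*, *Ndrg1* and *Bnip3* were higher and *Bnip3l* lower in titled mutants, 4 of 8. Of all 12866 genes tested, 25.2% passed, 11.8% as higher and 13.4% as lower. The median log2 fold change was 0.14 over the 8 genes and 0.001 over all genes. The groups of these 4 did not overlap, as for 28.1% of all genes.

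**Figure D3:**
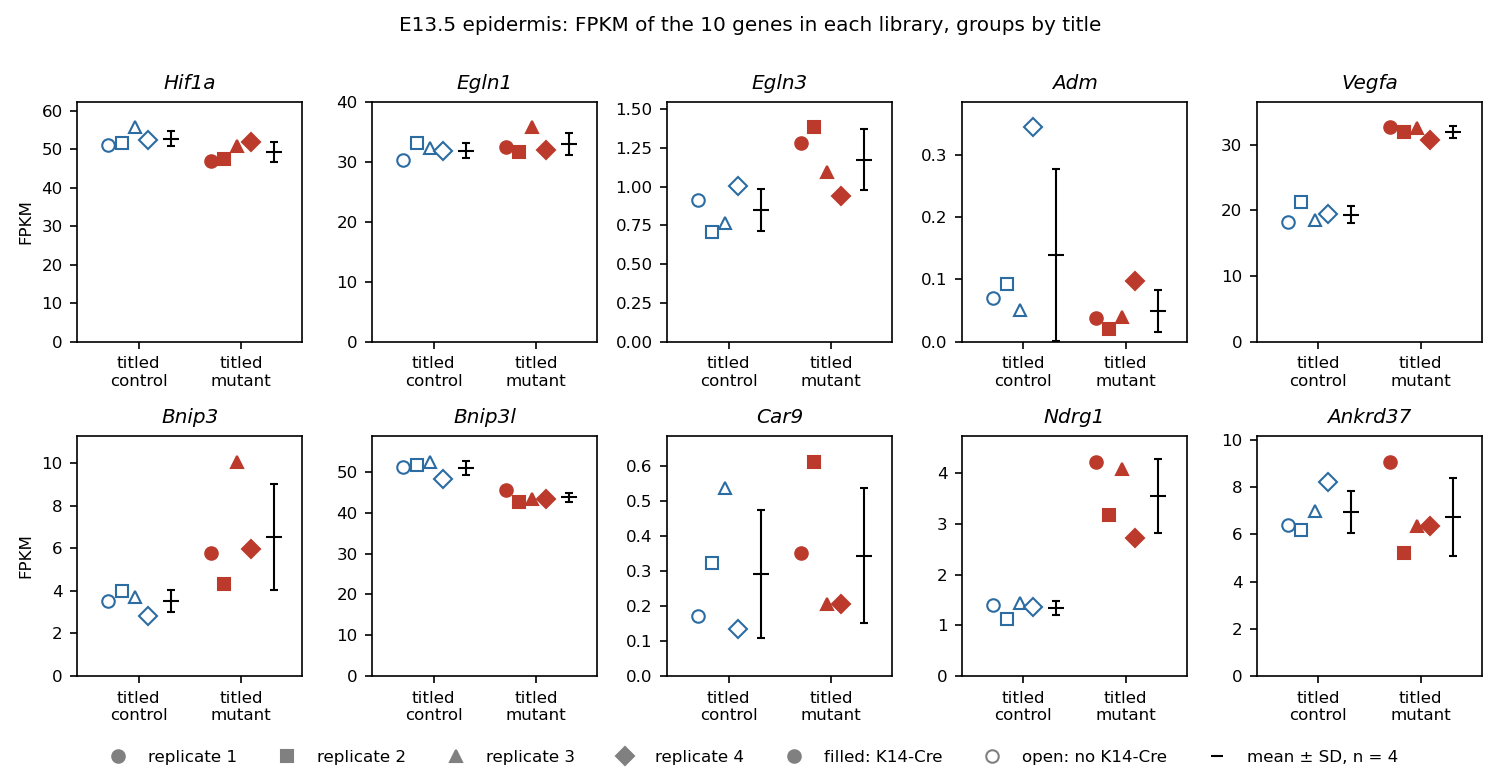
FPKM of the 10 genes in the 8 E13.5 libraries, grouped by title, one panel per gene with its own linear axis from 0, with the mean and SD of 4 libraries beside each group. Filled symbols carry K14-Cre by the genotype tag. The groups of *Vegfa*, *Ndrg1*, *Bnip3* and *Bnip3l* do not overlap, and *Adm* is below 0.4 FPKM in every library.

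*Vegfa* was the clearest of them. Its FPKM was 18.2, 21.2, 18.6 and 19.4 in titled controls 1 to 4 and 32.6, 31.9, 32.6 and 30.8 in titled mutants 1 to 4. The groups were tight and far apart. The mean was 1.65-fold higher in titled mutants (19.4 ± 1.33 against 32.0 ± 0.874 FPKM, SD, n = 4), with a log2 fold change of 0.70 (SE 0.05, limma, adjusted p = 3.48e-05). It passed the threshold under all 18 alternatives, and only the grouping by column name turned its sign.

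*Ndrg1* was low but had the largest log2 fold change of the 8 genes tested at E13.5. It was at 1.41, 1.13, 1.44 and 1.36 FPKM in titled controls and 4.23, 3.18, 4.09 and 2.72 in titled mutants. The lowest titled mutant was well above the highest titled control. The fold of the means was 2.66 and the log2 fold change 0.95 (SE 0.12, limma, adjusted p = 0.000693), past the threshold under all 17 alternatives.

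*Bnip3* was at 3.53, 4.01, 3.71 and 2.83 FPKM in titled controls and 5.77, 4.33, 10.1 and 5.95 in titled mutants. The groups did not overlap, and titled mutant 3 was the highest by far. The log2 fold change was 0.69 (SE 0.20, limma, adjusted p = 0.0335). It was lost without titled control 1, 3 or 4 or titled mutant 1 or 4 (adjusted p = 0.0596, 0.0658, 0.0857, 0.0609 and 0.0638).

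*Bnip3l* went the other way by a small, steady step. It was at 51.2, 51.7, 52.6 and 48.4 FPKM in titled controls and 45.5, 42.7, 43.4 and 43.5 in titled mutants, without overlap. The mean was 0.859 of that in titled controls (log2 fold change -0.21, SE 0.04, limma, adjusted p = 0.00358). The ratio of *Bnip3l* to *Bnip3* FPKM was accordingly 12.9 to 17.1 in titled controls and 4.31 to 9.87 in titled mutants.

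The regulators did not pass the threshold at E13.5. *Hif1a* was at 51.2, 51.7, 55.7 and 52.5 FPKM in titled controls and 47.0, 47.4, 51.0 and 52.0 in titled mutants (log2 fold change -0.097, SE 0.045, limma, adjusted p = 0.144). *Egln1* was at 30.4 to 33.2 and 31.8 to 35.8 FPKM (log2 fold change 0.047, 95% interval -0.059 to 0.15, adjusted p = 0.498). *Egln3* was at 0.911, 0.707, 0.767 and 1.005 FPKM in titled controls and 1.28, 1.38, 1.096 and 0.938 in titled mutants (log2 fold change 0.23, adjusted p = 0.108). *Egln3* reached the filter only through the titled mutants (3 of them and 1 titled control at 1 FPKM or more). All 3 sets of groups overlapped.

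*Ankrd37* was at 6.20 to 8.20 FPKM in titled controls and 5.19 to 9.08 in titled mutants (log2 fold change -0.054, 95% interval -0.38 to 0.27, limma, adjusted p = 0.814). *Adm* and *Car9* were under the filter. *Adm* was at 0.0697, 0.0925, 0.0507 and 0.344 FPKM in titled controls and 0.0381, 0.0208, 0.0392 and 0.0981 in titled mutants (exact permutation test, two-sided p = 0.171). The rise of *Adm* at P0 thus had no counterpart that could be tested with limma at E13.5. *Car9* was at 0.135 to 0.535 and 0.204 to 0.612 FPKM (exact permutation test, two-sided p = 0.657).

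Titled controls 3 and 4 carry the number 67 in their column names, and the other 6 libraries carry another number. Without these 2 libraries *Vegfa* (0.67), *Ndrg1* (0.99) and *Bnip3l* (-0.23) stayed past the threshold on the log2 scale (limma, adjusted p = 0.00178, 0.0113 and 0.0173), and *Bnip3* did not (0.61, adjusted p = 0.188). The labels do not say what these numbers stand for.

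The 2 stages were compared as a contrast of the effects, (P0 mutant minus control) minus (E13.5 titled mutant minus titled control), over 16 libraries. Of the 8 genes tested at both stages, 3 differed, against 46.4% of all 11858 genes (14.6% higher and 31.8% lower in the P0 effect). All 3 were lower. *Bnip3* differed by -1.27 on the log2 scale (SE 0.29, limma, adjusted p = 0.00206), falling at P0 and being higher in titled mutants at E13.5. *Vegfa* differed by -0.79 (SE 0.20, adjusted p = 0.00453) and *Egln1* by -0.31 (SE 0.08, adjusted p = 0.00417). *Egln1* lost its difference after median-of-ratios scaling (-0.13, adjusted p = 0.193). *Ndrg1*, at -0.51 (adjusted p = 0.0535), gained one with a pseudocount of 0.1 (-0.87, adjusted p = 0.00704) and against Cre-positive P0 controls (-0.68, adjusted p = 0.0248). *Hif1a* (0.67, adjusted p = 0.0374) and *Egln3* (0.86, adjusted p = 0.0321) gained one after median-of-ratios scaling and *Ankrd37* (0.64, adjusted p = 0.0451) after quantile normalization. How many of all genes differed under these settings was not counted. *Egln3* had reached the E13.5 filter only through the titled mutants, in this and every other stage contrast. The stages also differ in age, tissue preparation and sequencing table, which cannot be told apart from stage.

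With the E13.5 groups taken from the column names, 4 of the 8 genes differed, against 32.8% of all genes. *Ndrg1* (1.40, limma, adjusted p = 0.000118), *Egln3* (1.14, adjusted p = 0.0114) and *Vegfa* (0.61, adjusted p = 0.0293) were then higher in the P0 effect and *Egln1* (-0.21, adjusted p = 0.0441) lower. *Bnip3*, which had the largest difference by title, was at 0.11 (adjusted p = 0.813). By title *Ndrg1* was higher in mutants at both stages and *Bnip3* in opposite directions, and by column name the reverse held. Only *Egln1* kept both its direction and its call under the 2 groupings. Without P0 mutant 4, a fit added after the data were seen, *Hif1a* (0.76, adjusted p = 1.77e-05), *Bnip3l* (0.40, adjusted p = 0.000475) and *Egln3* (0.83, adjusted p = 0.0305) joined the 3 genes that differed by title, 6 of 8 against 53% of all genes.

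**Figure D4:**
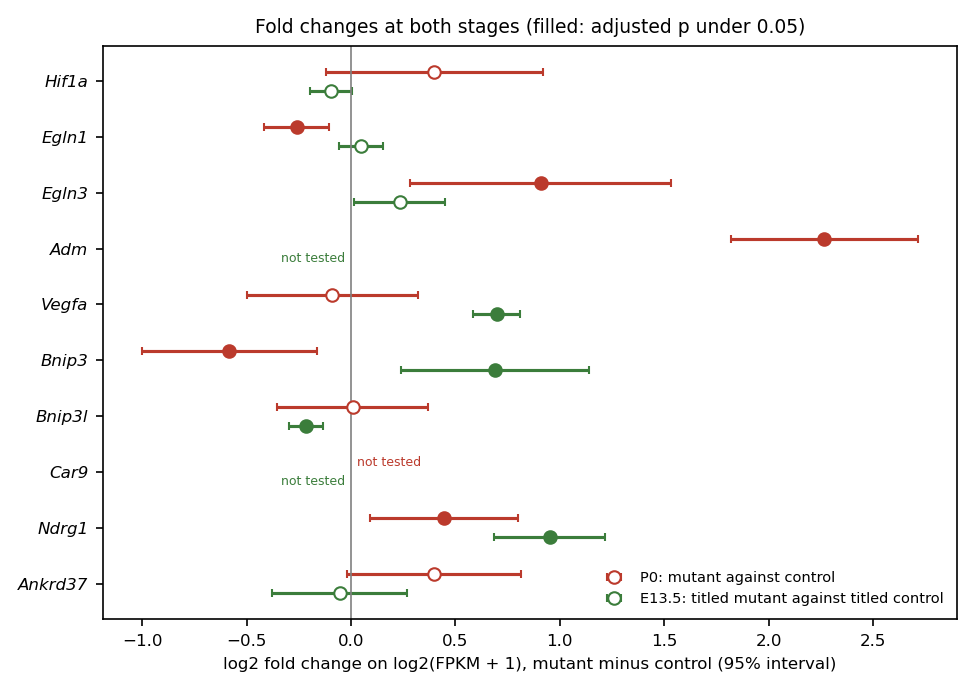
Log2 fold changes on log2(FPKM + 1) with 95% intervals for the 10 genes at P0 (red) and E13.5 (green, libraries grouped by title). Filled points have an adjusted p under 0.05. *Bnip3* lies at -0.58 at P0 and 0.69 at E13.5, *Vegfa* at -0.090 and 0.70, and *Ndrg1* is to the right of 0 at both stages. *Car9* was not tested and *Adm* only at P0.

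Other genes of the pathway were counted in lists written from general knowledge. Such counts are to be read beside the shares of all tested genes. At P0 42.3% were called, 11.7% as higher and 30.7% as lower. At E13.5 25.2% were called, 11.8% as higher and 13.4% as lower. Among regulators of HIF, 10 of 12 were tested at P0, and 2 fell and 0 rose (20% called). *Egln2* (PHD1), the third hydroxylase, was lower in mutants, at 23.8 ± 1.80 FPKM against 33.5 ± 0.984 in controls (SD, n = 4), by -0.48 on the log2 scale (adjusted p = 0.00085, limma). *Arnt*, the partner of HIF1α, was also lower, at 13.8 ± 3.30 FPKM against 20.1 ± 1.01 (-0.54, adjusted p = 0.0238), a call lost with median-of-ratios scaling (-0.35, adjusted p = 0.102), under which 1 regulator was higher and 1 lower. At E13.5 4 were higher and 1 lower of 10. *Hif3a*, a further α subunit, was at 3.17 ± 0.199 FPKM in titled controls and 6.87 ± 0.316 in titled mutants (0.92, adjusted p = 1.59e-05), and *Egln2* (0.21, adjusted p = 0.013) and *Arnt* (0.19, adjusted p = 0.0116) were also higher there.

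Among other non-glycolytic hypoxia targets, 3 rose and 8 fell of 28 tested at P0 (39.3% called, median log2 fold change -0.069). This was near the share of all genes called, 42.3%, of which most were lower (30.7%), with a median of -0.15. After median-of-ratios scaling the median of the targets turned to 0.10, with 5 targets called higher and 6 called lower. *Cxcr4*, a chemokine receptor found on many leukocytes, fell from 22.6 ± 1.77 to 3.09 ± 1.02 FPKM (-2.56, adjusted p = 1.47e-05, limma). *Plod1*, a collagen lysyl hydroxylase, fell from 18.3 ± 0.344 to 5.84 ± 1.14 FPKM (-1.51, adjusted p = 1.74e-05). *Hmox1*, the heme oxygenase induced by oxidative stress, rose from 5.82 ± 1.02 to 16.1 ± 1.701 FPKM (1.33, adjusted p = 5.23e-05). At E13.5, 11 were higher and 5 lower of 25 (64% called, against 25.2% of all genes, median 0.18). *Pdgfb*, among the higher ones, had reached the filter only through the titled mutants. *Plod2*, another lysyl hydroxylase, was at 23.1 ± 2.34 FPKM in titled controls and 9.78 ± 1.17 in titled mutants (-1.16, adjusted p = 7.16e-05). *Hmox1* was lower (-0.42, adjusted p = 0.00536) and *Bhlhe40*, a clock-related repressor, higher (0.60, adjusted p = 0.00588) in titled mutants.

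Partners and relatives of the secreted factors were called lower or could not be tested at P0, apart from *Nrp1* (-0.25, limma, adjusted p = 0.168). Of the VEGF family 4 of 5 tested genes fell and 0 rose, beside 30.7% of all genes called lower, with 3 lower if quantiles were equalised and 4 under median-of-ratios scaling. The other 4 were under the filter, among them the receptors *Kdr* (0.0502 ± 0.0398 FPKM in controls and 0.183 ± 0.0960 in mutants) and *Flt1* (0.0389 ± 0.0135 and 0.0977 ± 0.0507), whose means were higher in mutants. *Nrp2*, a co-receptor of vessels and nerves, fell from 25.9 ± 3.93 to 3.62 ± 1.11 FPKM (-2.57, limma, adjusted p = 1.74e-05), and the ligands *Vegfb* (-0.67, adjusted p = 0.00146) and *Pgf* (-0.73, adjusted p = 0.00166) fell as well, *Pgf* having reached the filter only through the controls. At E13.5 *Vegfb* was the 1 of 4 called (0.23, adjusted p = 0.0429). The RAMP proteins, which join the calcitonin-like receptor to make adrenomedullin receptors, had reached the filter at P0 through the controls, with at most 1 mutant at 1 FPKM, so that a fall was built into their being tested. *Ramp1* fell from 3.18 ± 0.268 to 0.155 ± 0.0493 FPKM (-1.85, adjusted p = 1.71e-06), *Ramp3* from 2.22 ± 0.442 to 0.357 ± 0.0622 (-1.24, adjusted p = 4.09e-05) and *Ramp2* from 3.28 ± 0.441 to 1.04 ± 0.443 (-1.09, adjusted p = 0.000502). The other genes of this list of 5 were not tested, *Calcrl* at 0.642 ± 0.186 and 0.0509 ± 0.0219 FPKM and the ligand *Adm2* at 0.497 ± 0.218 and 1.44 ± 0.555, and none was tested at E13.5.

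Some markers of other cell types also changed at P0, where 30.7% of all genes were called lower and 11.7% higher. Myeloid and Langerhans cell markers were lower for 6 of 6 tested, and their summed FPKM (7 genes) was 90.1 to 152 in controls and 36.9 to 50 in mutants. The tested hair follicle markers were lower for 6 and higher for 1 of 7. *Krt28*, among the lower ones, had reached the filter only through the controls, so a fall was built into its being tested. *Lhx2*, a hair follicle regulator, fell from 75.6 ± 9.34 to 3.83 ± 1.19 FPKM (-4.02, limma, adjusted p = 1.53e-06), whereas the keratin *Krt17* rose from 2083 ± 319 to 3179 ± 467 (0.61, adjusted p = 0.00936) and made up most of the sum of the list, 2010 to 2700 in controls and 2770 to 3860 in mutants. Endothelial markers were under 1 FPKM in every control for 6 of 7, summing to 8.07 to 10.4 in controls and 4.36 to 7.43 in mutants, and the only one tested, *Egfl7*, fell (-0.69, adjusted p = 0.0123; with quantile normalization -0.44, adjusted p = 0.063). Of fibroblast markers 2 of 3 fell, and their sum (6 genes) was 174 to 268 and 79.6 to 163, with *Dcn* losing its call after median-of-ratios scaling (-0.58, adjusted p = 0.0643). The part of these cells in the changes of *Cxcr4*, *Nrp2*, the *Ramp* genes and the 10 genes was not tested. Melanocyte markers were higher for 3 of 6, with sums of 195 to 261 and 251 to 519, and suprabasal and granular markers for 1 of 6, with sums of 11800 to 17200 and 16000 to 23500. Median-of-ratios and quantile scaling raised these counts to 5 and 4 of 6 for melanocyte markers and to 3 and 2 of 6 for suprabasal ones, and that of keratinocyte markers from 1 to 4 and 2 of 6. Of erythroid markers 0 of 2 passed.

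At E13.5 myeloid and endothelial markers were low in both groups. Of each list 6 of 7 were under 1 FPKM in every library, and 0 of 1 tested passed. Melanocyte markers were lower in titled mutants for 3 of 5 (sums of 47.7 to 57.1 and 39.2 to 40.5) and hair follicle markers for 2 of 4. Of all genes 13.4% were called lower and 11.8% higher. *Krt71*, among the lower hair follicle markers, had reached the filter only through the titled controls, so a fall was built into its being tested. Fibroblast markers were higher for 1 of 5, keratinocyte markers for 3 of 6, and suprabasal and granular markers for 2 of 4 (sums of 121 to 174 and 171 to 392). *Krt1*, a keratin of the first suprabasal layers, was at 19.9 ± 3.43 FPKM in titled controls and 80.6 ± 36.4 in titled mutants (1.86, limma, adjusted p = 0.00334). The part of these markers in the changes of *Vegfa*, *Ndrg1*, *Bnip3* and *Bnip3l* was not tested.

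Of mitophagy genes other than the *Bnip3* pair, 5 fell and 1 rose of 12 tested at P0, and 4 fell and 3 rose with median-of-ratios scaling. *Map1lc3a*, an autophagosome membrane protein, fell from 49.1 ± 4.43 to 26.3 ± 2.18 FPKM (-0.87, limma, adjusted p = 9.41e-05). *Pink1*, the kinase that marks damaged mitochondria (-0.61, adjusted p = 0.000204), and *Ulk1*, which starts autophagy (-0.49, adjusted p = 0.00188), fell too. At E13.5 *Optn*, an autophagy receptor, was higher (0.26, adjusted p = 0.0273) and *Map1lc3a* lower (-0.19, adjusted p = 0.0273), 2 of 12, against 25.2% of all genes. The *Ndrg1* relatives *Ndrg2*, *Ndrg3* and *Ndrg4* passed the threshold at neither stage, 0 of 3 each. Of the carbonic anhydrases 1 rose and 1 fell of 4 at P0, and *Car11* fell (-0.48, adjusted p = 0.0202) at P0, a call lost with median-of-ratios scaling (-0.37, adjusted p = 0.0738) and quantile normalization (-0.17, adjusted p = 0.42), and was higher in titled mutants at E13.5 (0.50, adjusted p = 0.00922).

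Glycolysis genes, many of them HIF1 targets, served as the comparison list. At P0, 13 rose and 4 fell of 20 (85% called, against 42.3% of all genes, median log2 fold change 0.46). The split was 14 to 2 by median-of-ratios and 12 to 1 by quantile scaling. *Pfkp* rose from 13.0 ± 0.798 to 24.9 ± 2.68 FPKM (0.89, limma, adjusted p = 0.0001) and *Eno1* from 203 ± 22.0 to 347 ± 6.45 (0.78, adjusted p = 0.000136), whereas *Pfkm* fell from 8.50 ± 0.345 to 3.88 ± 0.652 (-0.97, adjusted p = 0.000145). At E13.5, 7 were higher and 1 lower of 20 (40% called, against 25.2% of all genes). The glucose transporter *Slc2a1* was at 79.3 ± 2.43 FPKM in titled controls and 120 ± 12.9 in titled mutants (0.59, adjusted p = 0.000509), *Aldoc* was higher (0.75, adjusted p = 0.00109) and the transporter *Slc2a3* lower (-0.62, adjusted p = 0.00321). A difference between the lists was not tested.

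**Figure D5:**
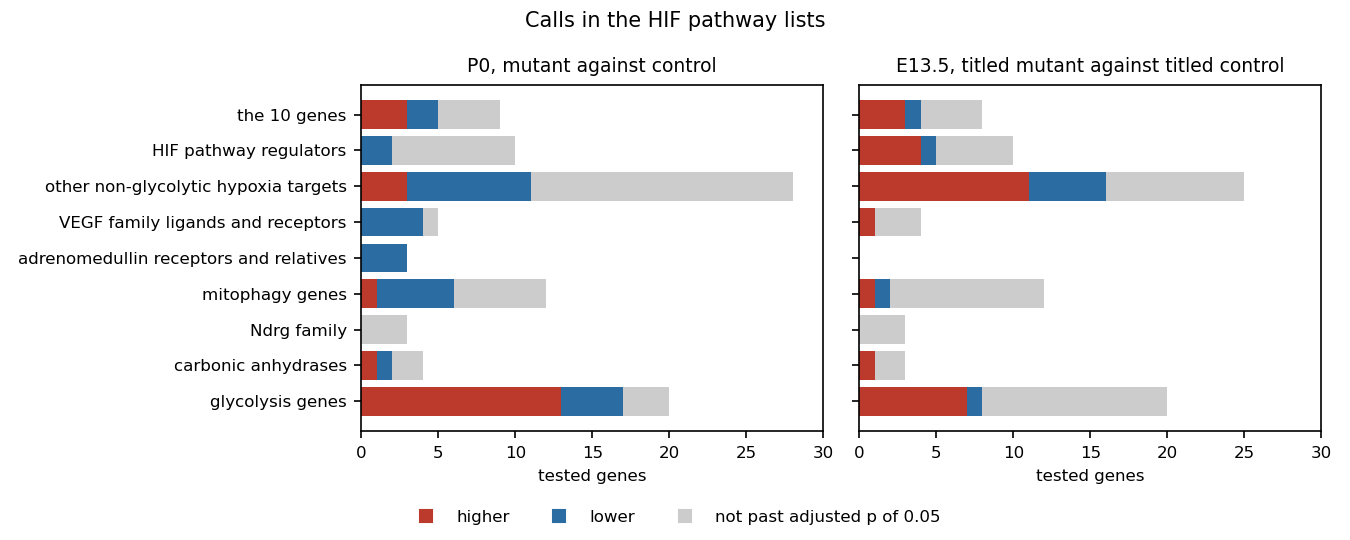
Number of tested genes called higher (red), called lower (blue) or not past the adjusted p of 0.05 (grey) in the 10 genes and in 8 lists, at P0 (left) and at E13.5 with libraries grouped by title (right). At P0 glycolysis genes are mostly red (13 of 20) and the 3 tested adrenomedullin receptor genes, which reached the filter through the controls, are blue. At E13.5 the other hypoxia targets have 11 of 25 in red, beside 11.8% of all genes called higher.

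Counting could also touch the values. Whether the authors counted reads by strand is not stated. Genes on the opposite strand are annotated over *Hif1a*, *Adm*, *Bnip3*, *Car9*, *Ankrd37* and *Ndrg1* (GENCODE M21), among them the coding genes *Ufsp2* and *Lrp2bp* at *Ankrd37*, and the gene model *Gm49321* overlaps *Hif1a* on its own strand. Reads from such pairs cannot be told apart here.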

How the data were processed

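RNA-Seq of mouse back skin was analysed in 16 libraries, 4 per group at each stage. The authors ran the QuickNGS pipeline and deposited FPKM values, 1 table for P0 and 1 for E13.5. Build mm10 and the tools bcl2fastq (versions 2.17.1.14 and 2.18.0.12) and FastQC (0.11.5) come from the submitters' processing notes, with the aligner not given in the sources used here. Each table has 49452 genes, 20695 with a symbol, and a reference table gave names for 28503. All libraries differed in their values.

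Groups follow titles and genotype tags. A gene was tested if 4 or more of a stage's 8 libraries reached 1 FPKM. limma 3.58.1 (R 4.3.3, mean trend, two-sided) was fitted to log2(FPKM + 1) for each stage, with Benjamini-Hochberg adjustment over all tested genes and a threshold of 0.05. *Adm* and *Car9*, where under this filter, had an exact permutation test over 70 splits. Stages were compared by a limma contrast of both effects. The fit was tested on simulated data. Python 3.11.15, pandas 2.3.3, numpy 2.4.6 and matplotlib 3.10.9 were used for tables and plots.

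Named genes are the 10, *Cenpj*, and for each list and stage up to 3 genes with the smallest adjusted p among those past 0.05 whose groups do not overlap. The 10 genes and the lists were chosen with earlier results of these data known. *Rbx1*, *Loxl2*, *Map1lc3b*, *Gapdh* and *Hbb-bs* were not analysed here.

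Alternatives changed the pseudocount (0.1), the filter (none, or a mean of 5 FPKM), the scaling (median-of-ratios, quantile), the weights, the trend or the block, or left out each library in turn. Others kept Cre-positive P0 controls alone, grouped E13.5 by column name or dropped the libraries with label number 67. The stage difference without P0 mutant 4 was chosen after seeing the data. Relative depth was read from FPKM values under 0.2.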

Additional observations from a re-analysis of the deposited data

Results flagged for a closer look

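A library far from the rest of its group was looked for in 40 groups of 4 (10 genes, 4 groups), by the gap of the highest or lowest library to its neighbour over the range of the group, against the 95% critical value of Dixon's test. Chance flags about 1 in 20 groups, and 3 were past it. For *Hif1a* at P0, control 2 was the lowest control (27.5 FPKM) with a gap of 0.924 of the range, although that range was only 27.5 to 29.1 FPKM. For *Adm* at P0, control 3 was the highest control (2.20 FPKM) with a gap of 0.841. For *Adm* at E13.5, the library titled control 4 was the highest (0.344 FPKM) with a gap of 0.857.

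The mutant effect differed between the stages, with E13.5 grouped by title, for 3 genes. The difference was -0.79 on the log2 scale for *Vegfa*, -1.27 for *Bnip3* and -0.31 for *Egln1* (limma contrast, adjusted p = 0.00453, 0.00206 and 0.00417). By column name it was 0.61, 0.11 and -0.21.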

How the results depend on the processing

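Over the tested genes of the 10, 107 of 152 values at P0, 124 of 142 at E13.5 and 34 of 48 of the stage difference kept their direction and side of the threshold under the alternatives. The count of the 10 genes called (5, 3 higher and 2 lower) became 2 (1 and 1) without a filter and 2 (1 and 1) against Cre-positive controls. Of all genes 6372 were called without a filter, out of a larger number tested, and 23% against Cre-positive controls. Called lower were 0 with median-of-ratios scaling, 1 with quantile normalization and 1 with array weights, which called 5 higher. Beside these, 38.5%, 36.8% and 7348 of the 13033 genes were called. Over each library left out the count of the 10 genes was 2 to 5 (1 to 4 higher, 1 to 2 lower), beside 33.8% to 49.5% of all genes. *Vegfa* turned to 0.098 (median-of-ratios), 0.065 (quantile) and 0.13 (array weights), with a range of -0.22 to 0.045 over left-out libraries. *Bnip3l* turned to -0.0072 (quantile) and -0.044 (Cre-positive controls), with a range of -0.074 to 0.18 over left-out libraries. Among all genes at P0, 2478 were lower under the stricter filter (mean of 5 FPKM), median-of-ratios scaling gave 2724 higher and 2299 lower calls and quantile normalization 2320 and 2480, and 3002 were called (829 and 2173) against Cre-positive controls, where 27 list genes were called.

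At E13.5 all 8 tested genes turned under the grouping by column name, with 1 higher and 3 lower: *Hif1a* 0.097, *Vegfa* -0.70, *Bnip3* -0.69, *Bnip3l* 0.21, *Egln1* -0.047, *Egln3* -0.23, *Ankrd37* 0.054 and *Ndrg1* -0.95. Swapping the groups leaves the share of all genes called at 25.2%. Without the libraries with label number 67, 1267 genes were called (536 higher, 731 lower), 12 of them in the lists, and *Ankrd37* was at 0.062. Without a filter 20 list genes were called. Over left-out libraries all-gene calls were 2196 to 3283 (1001 to 1549 higher, 1176 to 1872 lower), list calls 19 to 28, and *Ankrd37* -0.19 to 0.046. At P0 they were 4401 to 6451 (1231 to 1906 higher, 3142 to 4545 lower) and 36 to 45.

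For the stage difference (3 lower, 0 higher, beside 46.4% of all genes called), 2 became higher with median-of-ratios scaling and 1 with quantile normalization. How many of all genes differed under these scalings was not counted. By column name 3 were higher and 1 lower (32.8% of all genes called), with *Vegfa* at 0.61, *Bnip3* 0.11, *Bnip3l* -0.21 and *Ndrg1* 1.40. Without P0 mutant 4, 6 differed and 3 were higher, against 53% of all genes differing. The causes were not tested.

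Replicate numbers did not pair libraries: deviations of same-numbered libraries correlated at -0.02 to 0.11 (P0) and -0.01 to 0.07 (E13.5). With the number as a replicate block, *Ankrd37* passed at P0 (0.40, adjusted p = 0.0245, limma) and no other call among the 10 genes changed. Read numbers are unknown, so precision at low FPKM (*Adm* at E13.5, *Car9*) could not be computed.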
